A study of Homo sapiens with 9 samples.

Results

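Bases 3401 to 3640 form a range of 240 bases that starts where a stretch of 421 bases without any end stops. Each deposited library gave the number of ends at every base from 2 to 6566 of a shared reference sequence, so the range is 240 of 6565 bases. The range was chosen by measured values: bases 2980 to 3400 held no end in any library, and its start is the first base after them. Ends fell on 161 of the 240 bases in at least 1 library, and the other 79 bases were at 0 in all of them. The range is called the bases after the CAG repeat here only through its place behind the empty stretch. The sources used here do not give the position of the repeat in this numbering, the reference sequence, or whether the start or the end of a read was counted. The empty stretch has room for 140 whole triplets and 1 further base.

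The 9 libraries were made from total RNA of cultured human cells transfected with reporter plasmids. HEK293 is a line derived from human embryonic kidney, and HEK293T is a derivative that also makes the SV40 large T antigen. The repeat plasmids RANQ123, WTQ140, RANA123 and WTA140 were each placed in HEK293 (batch 1) and in HEK293T (batch 2), with 1 library for each plasmid and line. In the RAN plasmids the HTT start codons at codon positions 1 and 8 were replaced by UGA and AUC, whereas the WT plasmids kept the normal HTT sequence ahead of the repeat. Q and A give the reading frame in which nanoluciferase, a small reporter enzyme, was placed. The names of the RAN plasmids carry another number than those of the WT plasmids, and the labels do not explain it. A difference between RAN and WT therefore cannot be told apart from one in whatever that number stands for. AUG-NL, a plasmid without CAG repeats that served as the negative control, was sequenced in HEK293 (batch 1). The files hold positions and no genes, so the lines could not be checked against marker genes.

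HTT encodes huntingtin, and an expanded CAG repeat in its first exon causes Huntington's disease. The repeat codes for a run of glutamine (Q) in the normal frame, and the same bases read in another frame give alanine (A). In repeat-associated non-AUG (RAN) translation, ribosomes begin on or near a repeat without an AUG codon and can make such products in several frames. In the normal gene the CAG repeat is followed by bases rich in CCG, which code for a run of prolines, and a reporter read in a given frame lies behind a repeat in such assays.

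The bases that follow the CAG repeat in the human gene are shown because they are the natural neighbours of the repeat on this side. HTT spans 3041422 to 3243960 on chromosome 4 of GRCh38, with exon 1 at 3074681 to 3075088. The reference repeat of 19 CAG units spans 3074877 to 3074933 in the coding part of that exon. The rest of exon 1, at chr4:3074934-3075088 on the plus strand, is 155 bases long, all of it coding, with a GC content of 81.9%. It is printed 5′ to 3′ from the GENCODE transcript, with capitals marking each run of at least 2 CCG triplets. There are 4 such runs with 15 triplets in all, and the longest has 7.
HTT exon 1 after the CAG repeat: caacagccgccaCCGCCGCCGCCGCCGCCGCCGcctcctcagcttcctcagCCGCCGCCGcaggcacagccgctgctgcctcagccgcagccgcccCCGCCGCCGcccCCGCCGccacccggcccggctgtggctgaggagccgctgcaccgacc
The sources used here do not say whether the plasmids carry these bases or where nanoluciferase begins. Base numbers below count along the reference of the deposited files and were not placed on this sequence or on the genome.

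The range held 672 of the 25261 ends of the 8 repeat-plasmid libraries, or 2.66% of the ends on 3.66% of the bases. Base 2960, which lies 441 bases ahead of the range, alone held 23716 ends. Of the 1545 ends at all other bases, 43.5% fell in the range. AUG-NL had 0 ends in the range and 0 at all bases, so no share or limit could be given for it. The labels do not say whether its reads could have been counted.

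In HEK293 each plasmid placed between 2.45% and 2.93% of its ends in the range. RANQ123 had 110 of 4087 ends there, or 2.69% (exact 95% binomial interval 2.22 to 3.23). WTQ140, the deepest library, had 249 of 8492, or 2.93% (2.58 to 3.31). RANA123 had 148 of 5328, or 2.78% (2.35 to 3.26), and WTA140 had 87 of 3553, or 2.45% (1.97 to 3.01). These 4 intervals overlap one another.

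The HEK293T libraries were shallower and their shares were spread more widely. RANQ123 had 12 of 717 ends in the range, or 1.67% (0.868 to 2.91), and WTQ140 had 44 of 2308, or 1.91% (1.39 to 2.55). RANA123 had 13 of 389, or 3.34% (1.79 to 5.65), and WTA140 had 9 of 387, or 2.33% (1.07 to 4.37). RANQ123 in HEK293T was the lowest and RANA123 in HEK293T the highest of the 8 libraries, but their intervals overlap. The intervals cover counting error only, since ends from copies of 1 molecule are not independent.

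**Figure D1:**
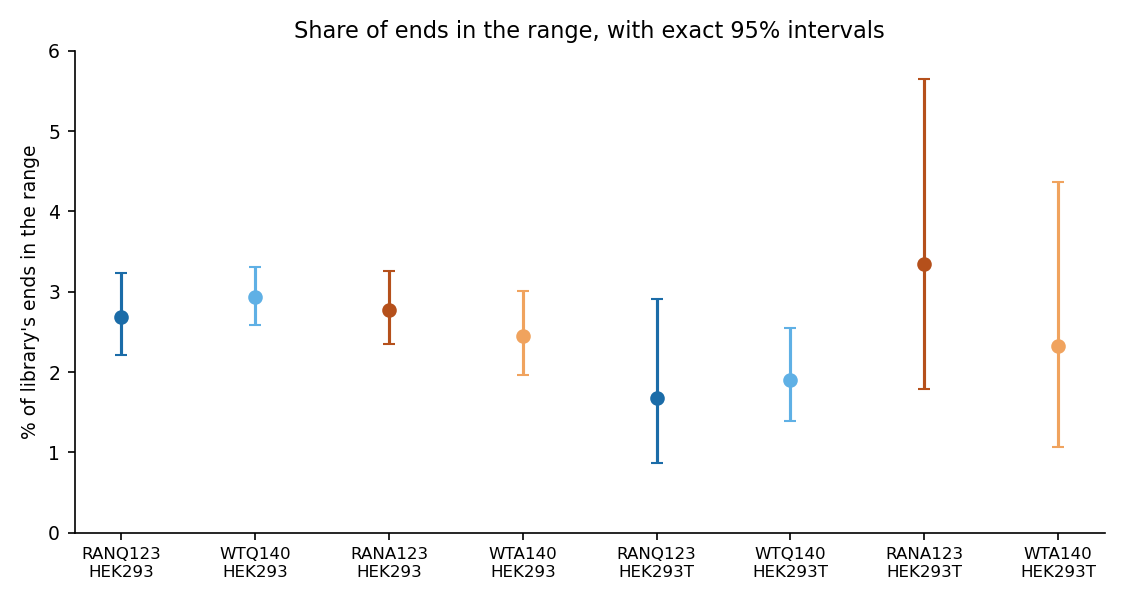
Share of each library's ends that fell in the 240 bases, in percent, for the 8 repeat-plasmid libraries; bars on the points are exact 95% binomial intervals. The HEK293 shares run from 2.45% to 2.93% and the HEK293T shares from 1.67% to 3.34%, with wider intervals in HEK293T.

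As a share of all ends, the range did not separate the plasmids or the lines beyond the spread between libraries. The share was 2.62% ± 0.694 (SD, n = 4 libraries) in RAN and 2.40% ± 0.422 (n = 4) in WT, with RAN the higher one in 2 of 4 matched pairs. A two-sided exact permutation test that flips the signs of these pairs gave p = 0.625, also after Benjamini-Hochberg adjustment over 6 tests. The smallest p that 4 pairs allow is 0.125, so this test cannot reach 0.05. The A libraries held 2.72% ± 0.454 (n = 4) and the Q libraries 2.30% ± 0.606 (n = 4), with A higher in 3 of 4 pairs (exact p = 0.5, adjusted 0.6). HEK293T held 2.31% ± 0.738 (n = 4) and HEK293 2.71% ± 0.202 (n = 4), lower in HEK293T in 3 of 4 pairs (exact p = 0.375, adjusted 0.6). Each of these 3 signs turned in at least 1 alternative, given with the processing alternatives at the end.

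Among ends away from base 2960, the differences between plasmids were larger in percentage points, with shares taken of 1545 ends and not of 25261. In the A libraries 53.2% ± 11.7 (n = 4) of such ends lay in the range, against 42.0% ± 1.501 (n = 4) in the Q libraries, 11.2 percentage points higher in A and higher in 4 of 4 pairs. In the RAN libraries it was 49.9% ± 12.5 (n = 4), against 45.4% ± 7.31 (n = 4) in the WT libraries, 4.56 points higher in RAN and also in 4 of 4 pairs. Each exact sign-flip p was 0.125 unadjusted, the lowest that 4 pairs can give. The highest values, 68.4% in RANA123 and 56.25% in WTA140 in HEK293T, rest on 13 of 19 and 9 of 16 ends. Their Q partners there had 41.4% (RANQ123) and 40.7% (WTQ140). In HEK293 the frames lay close together, with 45.7% in RANA123 against 44.2% in RANQ123, and 42.6% in WTA140 against 41.8% in WTQ140.

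Within the range most ends fell in a central block, with few before it and few after it. The limits of this block were set from the same counts. The first 70 bases held 55 ends (8.18%), the next 140 bases, 3471 to 3610, held 589 (87.6%), and the last 30 bases held 28 (4.17%). In successive blocks of 60 bases the counts were 46, 229, 259 and 138 ends, so that the inner blocks together held 488 (72.6%). The step into the central block was sharp: window 3461 to 3470 had 9 ends and window 3471 to 3480 had 66, the most of the 24 windows of 10 bases. Base 3473 alone held 35 of those 66 ends. A second high window, 3521 to 3530, had 65 ends, and a late one, 3591 to 3600, had 53. Between these 2 windows the counts fell to 20 ends in window 3561 to 3570, near the 18 in window 3611 to 3620 just after the block.

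The step at base 3471 was present in each HEK293 library. Window 3471 to 3480 held 9 ends in RANQ123 (8.18% of its ends in the range), 27 in WTQ140 (10.8%), 16 in RANA123 (10.8%) and 11 in WTA140 (12.6%). Base 3473 alone held 5, 16, 9 and 3 of these ends in the same order, so the step rests in large part on 1 base. The window before 3471 to 3480 held 0, 8, 1 and 0 in that order. In HEK293T window 3471 to 3480 held 1, 1, 0 and 1 ends in that order, too few to show a step.

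**Figure D2:**
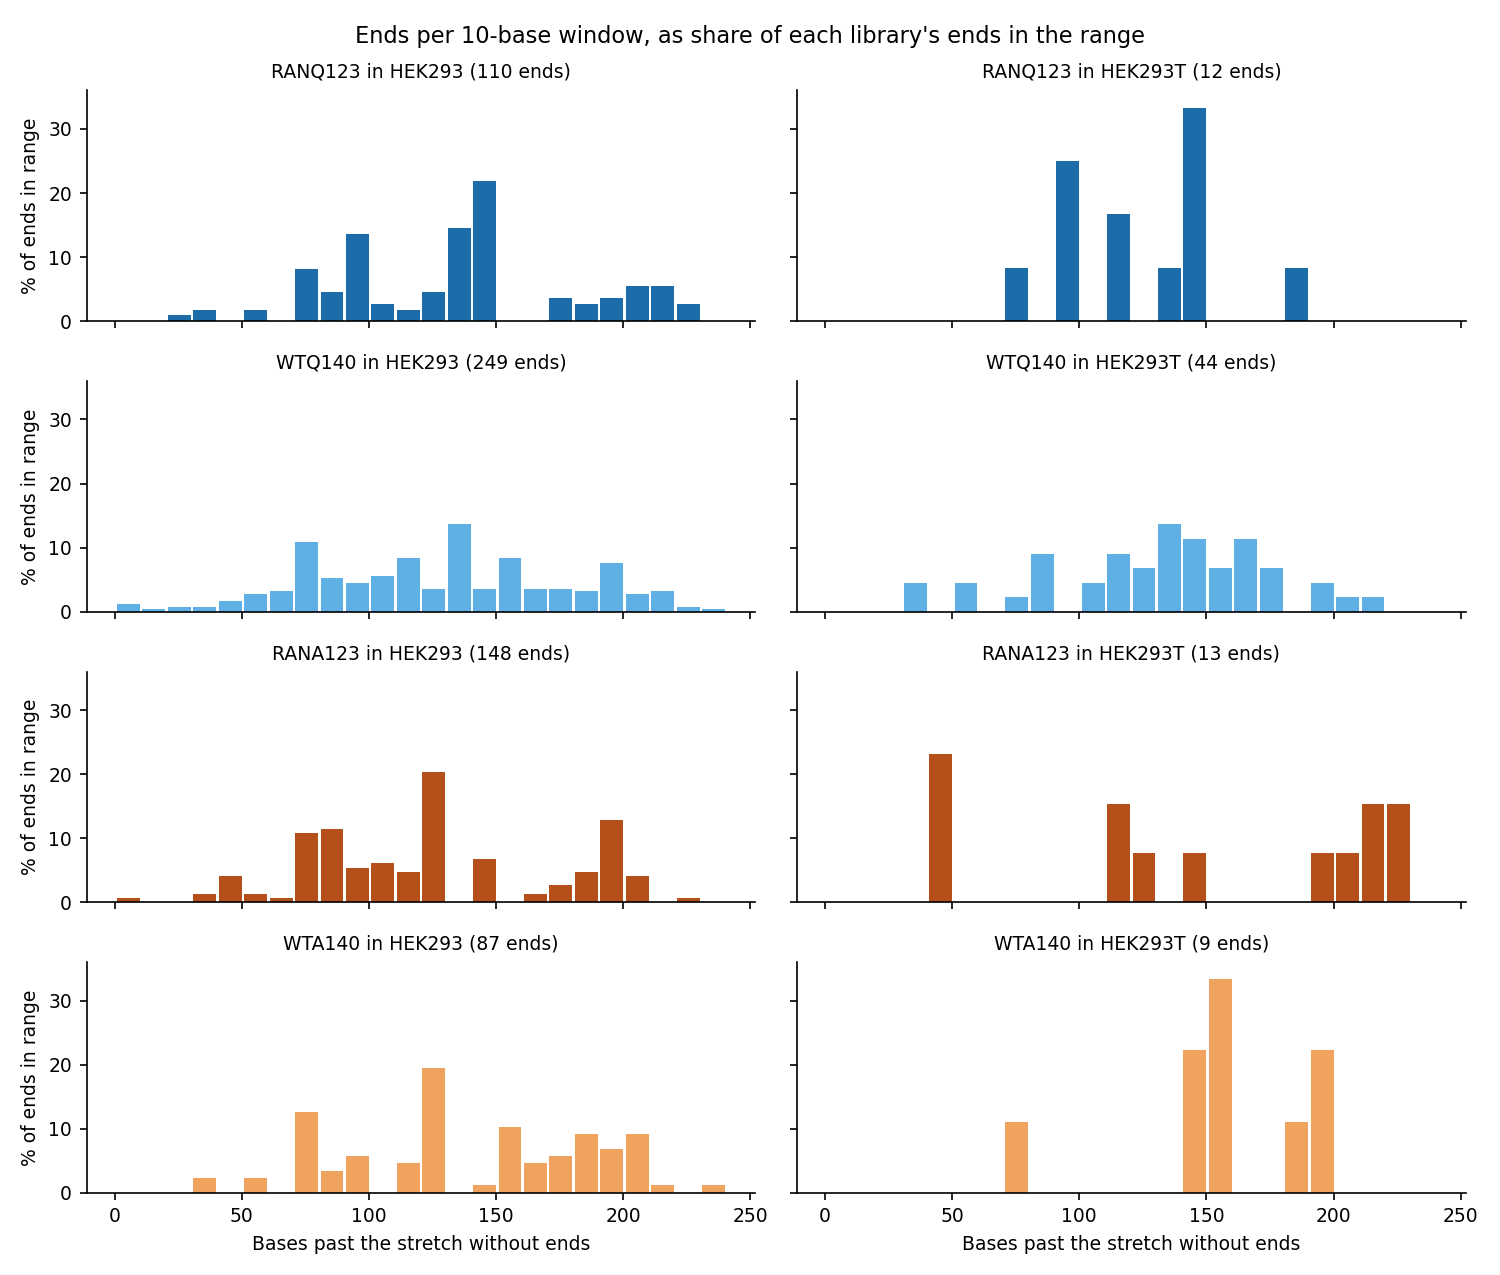
Share of each library's ends within the range per 10-base window, in percent, against the number of bases past the empty stretch, with 1 panel for each repeat-plasmid library. In the HEK293 panels the bars are low over the first 70 bases and rise at 71 to 80 bases; the HEK293T panels rest on 9 to 44 ends each.

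The middle of the distribution lay in nearly the same place in every HEK293 library. The median end was 137 bases past the empty stretch in RANQ123, 133 in WTQ140, 126 in RANA123 and 127 in WTA140. In HEK293T the medians were 124, 139.5, 148 and 158 in the same order. The mean RAN minus WT difference was -5.63 bases (exact sign-flip p = 0.375, adjusted 0.6). A was 6.38 bases farther than Q (exact p = 0.5, adjusted 0.6), and HEK293T 11.6 bases farther than HEK293 (exact p = 0.375, adjusted 0.6).

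**Figure D3:**
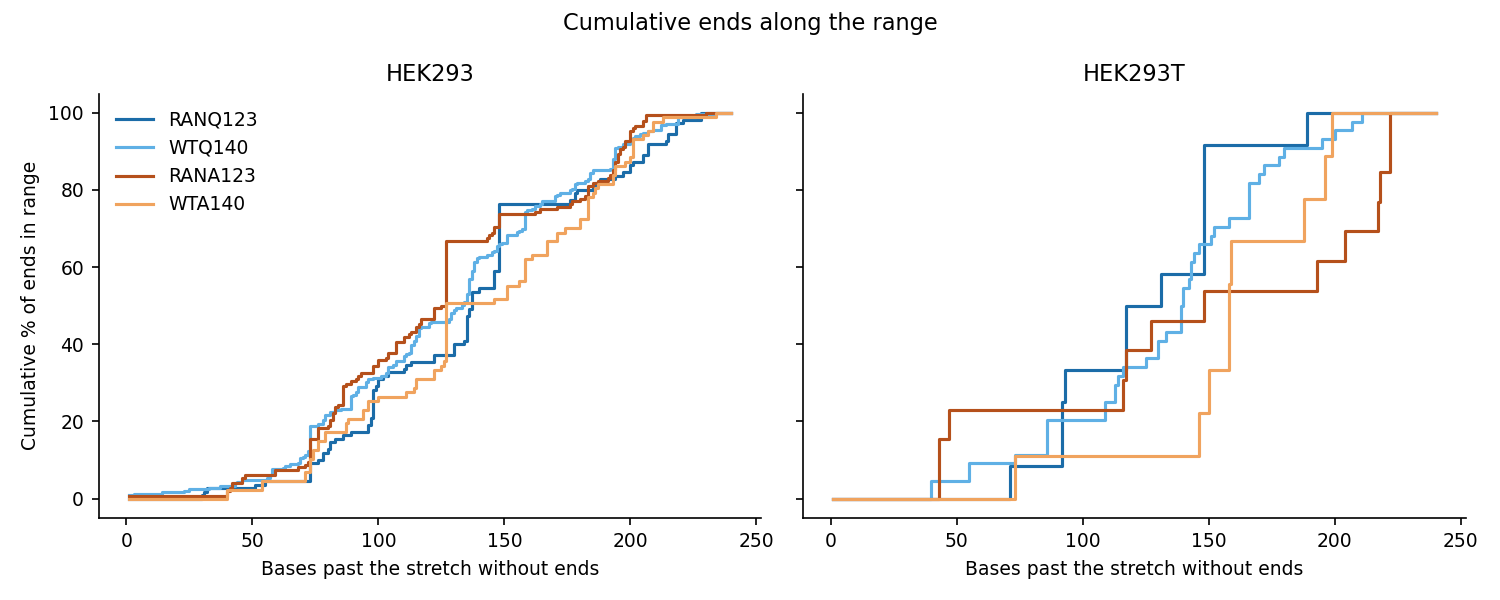
Cumulative share of ends along the range, in percent, against bases past the empty stretch, 1 line per repeat-plasmid library. The HEK293 lines cross 50% between 126 and 137 bases, and the HEK293T lines between 124 and 158.

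Below the scale of the whole range, the HEK293 libraries placed their ends differently. With 1 library per plasmid and line, a difference between plasmids cannot be told apart from scatter between libraries of 1 plasmid. How much of it counting error alone would give was not tested. Between pairs of HEK293 libraries the Spearman correlation over the 24 windows ran from 0.336 to 0.525, a description over windows of shared libraries. Moving 32.6% to 54.9% of the ends of 1 library to other windows would have been needed to match another. RANA123 and WTA140, which share the A frame, were the closest pair by both measures, and RANQ123 and WTA140, which share neither frame nor start codons, were the farthest by both. WTQ140 and RANA123 also share neither, yet had a correlation of 0.468 and 38.5% to move. WTQ140 and WTA140, which share start codons, had 0.456 and 38.7%. Closeness thus did not follow shared frame and start codons throughout. Window 3541 to 3550 was the only one of the 24 with ends in all 8 libraries, and 12 windows had ends in all 4 HEK293 libraries.

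Some single bases had ends in more than 1 library. Of the 161 bases with an end, 70 had ends in 1 library only and 91 in at least 2, and those 91 held 553 ends (82.3%). In HEK293 151 of the 240 bases had an end and in HEK293T 49, with 39 in both, which is 25.8% of the first set and 79.6% of the second. These shared bases held 63 of the 78 HEK293T ends. HEK293 had 594 ends in the range, and the lists were not compared at equal depth. The HEK293 ends thus already covered most bases of the range, and whether the overlap exceeds that coverage was not tested.

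Base 3473, just inside the central block, was the most widely shared base among those with many ends. It had 5 ends in RANQ123, 16 in WTQ140, 9 in RANA123 and 3 in WTA140 in HEK293. In HEK293T it had 0, 1, 0 and 1 in the same order. It was thus seen in 6 libraries, and all 4 HEK293 values lay between 3.45% and 6.43% of the library's ends in the range. Base 3546 was the other base seen in 6 libraries, with 5, 1, 2 and 1 ends in HEK293 and 0, 1, 0 and 1 in HEK293T. No base had ends in 7 or 8 libraries. Ends in all 4 HEK293 libraries were found at 8 bases (3473, 3476, 3546, 3585, 3594, 3600, 3601 and 3605), which held 96 ends (14.3%).

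**Figure D4:**
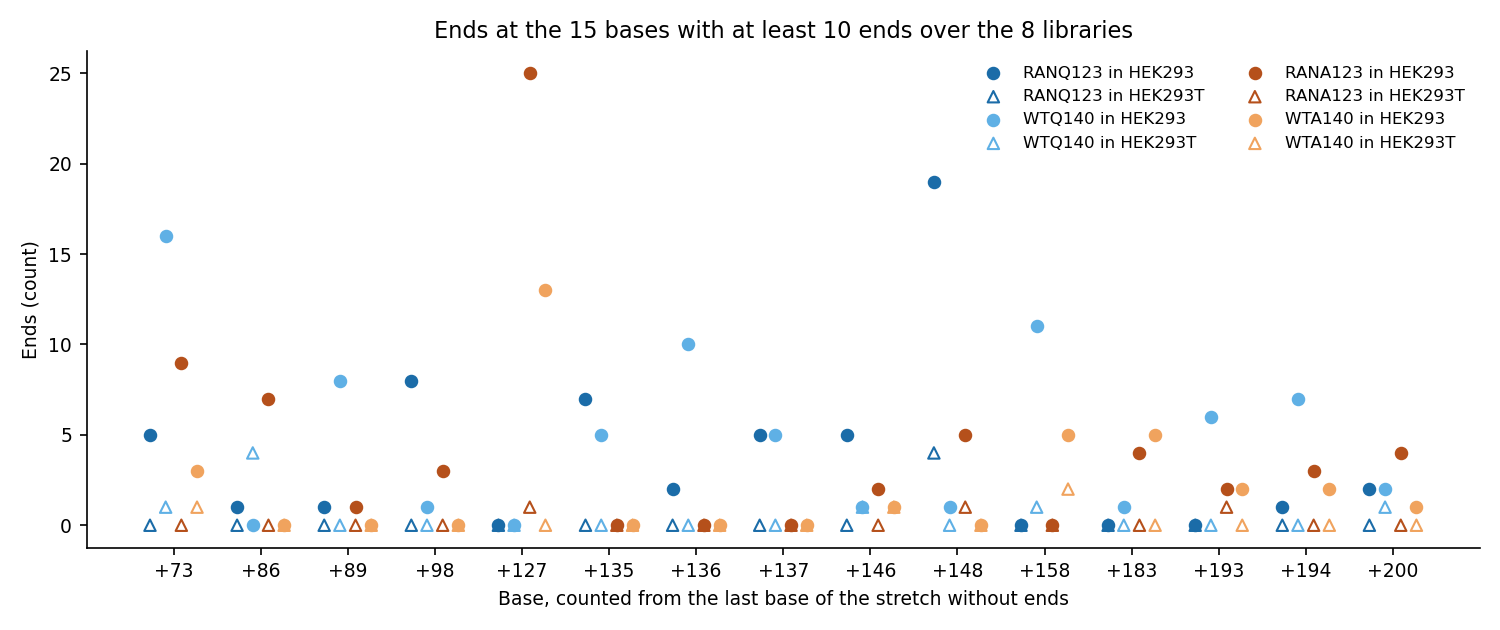
Number of ends at each of the 15 bases of the range with at least 10 ends, per library, with filled circles for HEK293 and open triangles for HEK293T. Base 3473 has points from RAN and WT and from A and Q plasmids; base 3527 has ends in A plasmids only, base 3548 mostly in RAN and base 3558 in WT only.

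The A and Q plasmids differed most between bases 3521 and 3540. Over these 20 bases A ends lay in the first 10 and Q ends mainly in the last 10. Window 3531 to 3540 held 16 ends in RANQ123 and 34 in WTQ140 in HEK293, and 1 and 6 in HEK293T. All 4 A libraries had 0 there. The Q libraries together thus had 57 of 415 range ends in this window (13.7%) and the A libraries 0 of 257, which allows up to 1.17%. No Q library overlapped an A library.

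With 3 ends over the A group as the floor, the share in window 3531 to 3540 was at least 11.8-fold lower in A, and at least 4.99-fold without RANA123 in HEK293. edgeR's quasi-likelihood test with Benjamini-Hochberg adjustment called it lower in A (adjusted p = 0.000623). It was the only window called of 25 tested over all bases, or 4.0%, and 18 of the 24 windows of the range were tested. The call was lost without RANQ123 in HEK293 (edgeR adjusted p = 0.0619) and in HEK293 libraries alone (0.105), and the adjusted p ran from 0.000201 to 0.105 over 15 settings. DESeq2 also called it (log2 fold change -4.87, adjusted p = 0.0144). The window reached 10 ends through the Q libraries alone, where it was high, and edgeR called it with no filter too (adjusted p = 0.00121). In HEK293T the Q shares of 8.33% and 13.6% lie below the floor of 3 ends in the A libraries there, 23.1% and 33.3%.

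The neighbouring window went the other way without passing the test. In HEK293, window 3521 to 3530 held 30 ends for RANA123 and 17 for WTA140, and in HEK293T 1 and 0. The Q libraries held 5 in RANQ123 and 9 in WTQ140 in HEK293, and 0 and 3 in HEK293T. That was 18.7% of A ends and 4.10% of Q ends in the range (log2 fold change 1.86, edgeR adjusted p = 0.292). Where a window had to hold at least 10 ends in at least 2 libraries, fewer windows were tested and this one was called (1.94, edgeR adjusted p = 0.0219). It met that filter only through RANA123 and WTA140 in HEK293, where it was high, so the call adds no separate support.

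Summed over bases 3521 to 3540 as 1 window, the difference between A and Q was not present. Bases 3521 to 3540 held 48 of the A ends (18.7%) and 74 of the Q ends (17.8%), with a log2 fold change of -0.16 (edgeR adjusted p = 0.955). The position of ends within these 20 bases differed between frames, while their sum was within 1 percentage point. This depends on where the 20 bases start. Windows 3531 to 3540 and 3541 to 3550 were both lower in A, at 0% and 5.45% against 13.7% and 10.1% in Q. Window 3541 to 3550 was not called by edgeR (adjusted p = 0.895), and 20-base windows from other starts were not fitted.

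At single bases the A ends of this block were concentrated on base 3527. In HEK293, RANA123 had 25 ends there and WTA140 had 13, which made it the highest base of the range in both, and in HEK293T they had 1 and 0. All 4 Q libraries had 0. Its share of range ends was at least 20.99-fold higher in A, with 3 ends over the Q group as the floor, and at least 8.40-fold without WTQ140 in HEK293. edgeR called it in the fit of single bases (adjusted p = 4.23e-07), as 1 of 29 bases tested (3.45%), and also with any 1 library left out. The base was tested only through its A ends, where it was high, and with no filter edgeR called it among 382 bases (adjusted p = 1.49e-07). DESeq2 did not call it (log2 fold change 5.06, adjusted p = 0.999). Flipping the signs of the 4 matched differences in its share gave an exact p = 0.25, with A higher in 3 of 4 pairs and the last pair at 0 on both sides.

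The Q ends were spread over several adjacent bases instead. Base 3535 had 7 ends in RANQ123 and 5 in WTQ140 in HEK293, base 3536 had 2 and 10, and base 3537 had 5 and 5. All 3 bases were at 0 in the 4 A libraries and in both Q libraries of HEK293T. None passed the edgeR test alone (adjusted p = 0.179 each).

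RAN and WT plasmids differed in the next 20 bases, 3541 to 3560, in a like manner. RAN ends lay in the first 10 of these bases and WT ends mainly in the last 10. Window 3551 to 3560 held 21 ends in WTQ140 and 9 in WTA140 in HEK293, and 3 and 3 in HEK293T. All 4 RAN libraries had 0 there. This was 36 of 389 WT range ends (9.25%) against 0 of 283 RAN ends, which allows up to 1.06%. No WT library overlapped a RAN library.

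The share in window 3551 to 3560 was at least 8.73-fold lower in RAN, with 3 ends over the RAN group as the floor, and at least 4.16-fold without RANA123 in HEK293. edgeR called it lower in RAN (adjusted p = 0.00226), again as the only window of 25 tested over all bases (4.0%), and DESeq2 called it too (log2 fold change -4.77, adjusted p = 0.0150). It reached 10 ends through the WT libraries alone, and with no filter edgeR called it too (adjusted p = 0.00982). Over 14 settings the edgeR or DESeq2 adjusted p ran from 0.000759 to 0.254. edgeR lost the call without RANQ123 (0.0670), WTQ140 (0.162) or RANA123 in HEK293 (0.0662), and in HEK293 libraries alone (0.254). In HEK293T the WT shares were 6.82% and 33.3%, and the floor of 3 ends is 25% in RANQ123 and 23.1% in RANA123.

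The window just before, 3541 to 3550, held more of the RAN ends but did not pass the test. It had 24 ends in RANQ123 and 10 in RANA123 in HEK293 and 4 and 1 in HEK293T. In the WT libraries it had 9 in WTQ140 and 1 in WTA140 in HEK293 and 5 and 2 in HEK293T. That was 13.8% of RAN and 4.37% of WT ends in the range (log2 fold change 1.77, edgeR adjusted p = 0.222). Window 3561 to 3570, just after, had 2 RAN and 18 WT ends (log2 fold change -2.49, edgeR adjusted p = 0.222).

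As 1 window of 20 bases, 3541 to 3560 held 39 RAN ends (13.8%) and 53 WT ends (13.6%), with a log2 fold change of 0.00 (edgeR adjusted p = 0.995). As with the frames, the sums over these 20 bases lay close together and the 10-base windows within them did not. This depends on where the 20 bases start. Windows 3551 to 3560 and 3561 to 3570 were both lower in RAN, at 0% and 0.707% against 9.25% and 4.63% in WT. Windows of 20 bases from other starts were not fitted. Windows moved by 5 bases gave 1 call of 26 (3.85%) for each of A against Q and RAN against WT, and 0 for the lines. edgeR called 3536 to 3545 lower in A, at a log2 fold change of -2.88 (adjusted p = 0.0285), and 3556 to 3565 lower in RAN, at -3.70 (adjusted p = 0.0200). Each shares bases with the window called before, so these calls are not independent of the earlier ones. Window 3556 to 3565 reached 10 ends only through the WT libraries, where it was high, and moved windows were not fitted without the filter.

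Single bases carried much of this pattern as well. Base 3548 had 19 ends in RANQ123 and 5 in RANA123 in HEK293 and 4 and 1 in HEK293T, whereas its only WT end was in WTQ140 in HEK293. It was the highest base of the range in both RANQ123 libraries, with 17.3% of the range ends in HEK293 and 33.3% in HEK293T. edgeR called it higher in RAN (log2 fold change 5.18, adjusted p = 2.39e-05), where 6.90% of all bases tested were called higher. DESeq2 called it too (4.52, adjusted p = 0.00950), and edgeR lost the call without RANQ123 in HEK293 (0.0972). Base 3548 reached 10 ends only through its RAN ends, where it was high, and with no filter edgeR called it too (adjusted p = 0.00011).

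Base 3558 showed the reverse, with 11 ends in WTQ140 and 5 in WTA140 in HEK293, 1 and 2 in HEK293T, and 0 in every RAN library. Its share of range ends was at least 4.61-fold lower in RAN on the same floor, and at least 2.20-fold without RANA123 in HEK293. edgeR called it (adjusted p = 0.0118), but not without RANQ123 in HEK293 (0.0972) or RANA123 in HEK293 (0.0772), and DESeq2 did not (0.357). The base was tested only through its WT ends, and with no filter edgeR did not call it (0.361). Bases 3548 and 3558 were 2 of the 3 bases called among 29 tested (10.3%), and the remaining one lay ahead of the empty stretch. At both bases all 4 pairs lay on 1 side, for which sign flips over pairs give their lowest exact p of 0.125.

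**Figure D5:**
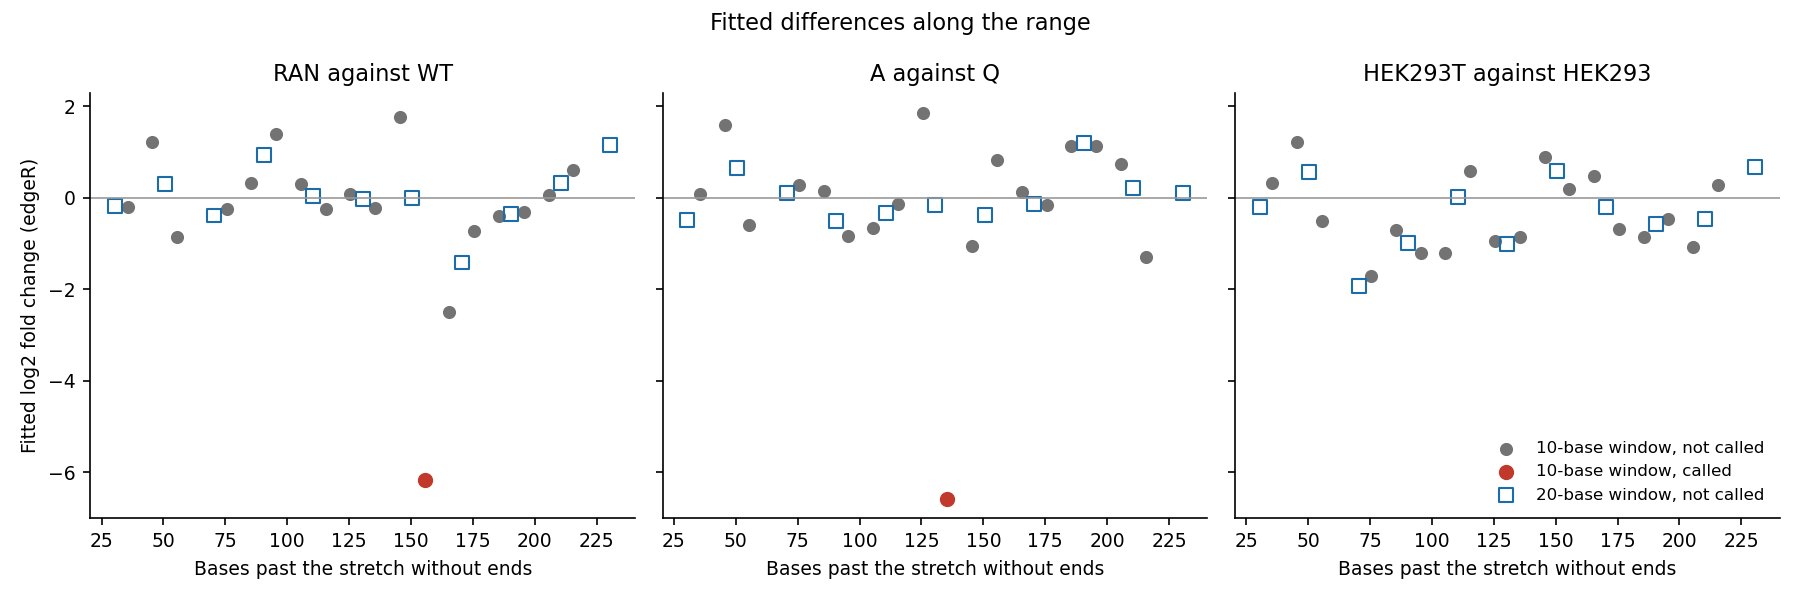
Fitted log2 fold change of each tested window of the range against bases past the empty stretch, 1 panel per comparison, with 10-base windows as filled points (red where edgeR's adjusted p was under 0.05) and 20-base windows as open squares. The red points are window 3531 to 3540 for A against Q and window 3551 to 3560 for RAN against WT; the 20-base windows that contain them lie at -0.16 and 0.00, and fitted values against a group at 0 depend on the prior count.

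HEK293T and HEK293 were compared with the plasmids matched. edgeR called 0 of 25 windows over all bases (0%), none of the 18 windows of the range had an unadjusted p under 0.05 (2 of 25 did over all bases), and DESeq2 also called 0, with 4 windows at an unadjusted p under 0.05. With windows moved by 5 bases, 2 range windows had an unadjusted edgeR p under 0.05 and were not called. Window 3496 to 3505 had 0 of 78 HEK293T ends, which allows 3.85%, and 38 of 594 HEK293 ends, or 6.40% (edgeR adjusted p = 0.0917). Window 3476 to 3485 had 0 and 35 ends (5.89% in HEK293, edgeR adjusted p = 0.105). Fitted log2 fold changes of the range windows ran from -1.71 to 1.22, with a median of -0.59 against -0.68 over all tested windows. The 4 HEK293T libraries held 78 ends in the range, and each window rests on few of them. Line and batch coincide and cannot be told apart.

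For the other comparisons the middle of the range windows lay near that of all windows tested. The median log2 fold change was -0.21 in the range and 0.00 over all tested windows for RAN against WT, and 0.11 and -0.14 for A against Q. The 7 tested windows outside the range gave 0 calls in each of the 3 comparisons.

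Other bases with at least 10 ends were high in 1 or 2 libraries. Base 3498 had 8 ends in RANQ123, 1 in WTQ140 and 3 in RANA123 in HEK293, and 0 in the other 5 libraries. Base 3489 had 8 of its 10 ends in WTQ140 in HEK293. Base 3486 had 7 ends in RANA123 and 1 in RANQ123 in HEK293 and 4 in WTQ140 in HEK293T. The library with most ends thus differed between these 3 bases, and none of these bases was called by edgeR in any comparison.

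Bases late in the central block had ends in 3 to 5 libraries each. Base 3583 had 1, 4 and 5 ends in WTQ140, RANA123 and WTA140 in HEK293 and 0 elsewhere. Base 3593 had 6, 2 and 2 in the same libraries and 1 in RANA123 in HEK293T. In HEK293, base 3594 had 1 end in RANQ123, 7 in WTQ140, 3 in RANA123 and 2 in WTA140, and base 3600 had 2, 2, 4 and 1 there plus 1 in WTQ140 in HEK293T. None was called by edgeR. In all, 15 bases reached 10 ends and together held 246 ends (36.6%).

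The other bases that were highest in a library rest on few ends. Base 3566 had 4 ends in WTQ140 in HEK293T and none in any other library, tied there with base 3486. Bases 3443 and 3622 had 2 ends each in RANA123 in HEK293T.

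The edges of the range held few ends. Its first 10 bases had 4 ends and the 10 bases ahead of them 0, which is how the range was chosen. Its last 10 bases had 2 ends and the 10 after them, 3641 to 3650, had 0. The last base with an end inside was 3634, and the next after the range was 3658. On a wider view the last 60 bases inside had 138 ends and the 60 bases after them had 8.

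Per 100 bases the range had 280.0 ends, the 200 bases ahead of the empty stretch had 326 with base 2960 left out, and the 2926 bases after the range had 5.64. Averaged over these lengths, the range and the bases on the other side of the empty stretch had alike densities, apart from base 2960 with its 23716 ends. Their layouts differed, with ends on 161 of the 240 bases of the range and on 85 of the 200 bases ahead, base 2960 included. These densities are descriptions, as the range was drawn around its ends.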

How the data were processed

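Libraries were made by a sequencing service from total RNA of transfected cells, per the labels' protocols. Raw counts, whole numbers that pair each base with its ends per the file headers, were used as deposited. Tools named without a role in the submitters' processing notes are cutadapt 4.9, STAR and SAMtools, with the build hg38. The sources used here do not give read selection, the handling of mates and duplicates or the reference of the bases, any of which could move or remove ends.

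Ends were summed over 10-base windows counted from the first base of the range over all bases. Windows with at least 10 ends over the 8 libraries together were fitted with edgeR 4.0.16 (R 4.3.3, library totals as scaling, quasi-likelihood test, additive terms for start codons, frame and line, Benjamini-Hochberg adjusted p under 0.05). Each group is 1 library, so p-values reflect only how libraries of unlike plasmids and lines scatter. With 4 residual degrees of freedom a window, edgeR pooled the spread over all 25 windows (100 degrees) and over 29 single bases (116). Its p-values would be larger with 4. Alternatives were DESeq2 1.42.0, TMM, other filters and windows, single bases and left-out libraries. For single bases, DESeq2, no filter and left-out libraries were added after seeing the data. Sign-flip tests used Python 3.11.15 with scipy 1.17.1, and a 0 was read against a floor of 3 ends. The floor is a convention on ends pooled over a group's libraries, so the fold differences based on it are not confidence limits. The fits were tested on 20 simulated sets per comparison, with 5 windows raised 4-fold in each and a chosen spread. Of 100 raised windows, edgeR recovered 74 for RAN against WT with 7 false calls. It recovered 75 with 10 false calls for A against Q, and 65 with 4 for HEK293T against HEK293. In each comparison false calls were a larger share of all calls than the threshold of 0.05. The spread was not estimated from these libraries, and no window was set to 0 in a group. These rates therefore do not tell how reliable the calls above are.

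Bases were named where they had at least 10 ends over the 8 libraries or were the highest in a library, and windows where they were called, with their neighbours. The 10 bases inside and outside each edge were also named. Bases 3476, 3585, 3601 and 3605 were added after their values were seen. The members, windows and lists were chosen with earlier results of these data known.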

Additional observations from a re-analysis of the deposited data

Results flagged for a closer look

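Among ends away from base 2960, RANA123 in HEK293T had 68.4% in the range (13 of 19, exact 95% interval 43.4 to 87.4), while the other RAN libraries had 41.4% to 45.7%. In the same way WTA140 in HEK293T had 56.25% (9 of 16, interval 29.9 to 80.2), while the other WT libraries had 40.7% to 42.6%. Both stood apart from the other 3 libraries of their set, among 18 sets of 4 checked, where chance sets about 1 in 20 apart. Both intervals include the values of the other libraries.

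The RAN minus WT difference in the share of all ends in the range was positive in both A pairs (0.329 and 1.02 percentage points, mean 0.673) and negative in both Q pairs (-0.241 and -0.233, mean -0.237). The effects differed by 0.909 points, and that difference was not tested.

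The A minus Q difference in the median position was negative in both HEK293 pairs (-11 and -6 bases, mean -8.5) and positive in both HEK293T pairs (18.5 and 24 bases, mean 21.25). The effects differed by -29.75 bases, HEK293 minus HEK293T, and that difference was not tested either. The HEK293T medians for A rest on 13 and 9 ends, and 12 pairs of effects were checked in all.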

How the results depend on the processing

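edgeR called 1 window in each plasmid comparison. For RAN against WT the number called was 0 with at least 10 ends in at least 2 libraries, where window 3551 to 3560 was not tested, 0 with 20-base windows, 3 with single bases, 0 in HEK293 alone, and 0 to 1 with each library left out. For A against Q these numbers were 2, 0, 1, 0 and 0 to 1. The 2 windows met the filter of at least 10 ends in at least 2 libraries only through the frame where they were high. For HEK293T against HEK293 it was 0 in all 16 alternatives.

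Of single bases, DESeq2 called 1 against 3 by edgeR for RAN against WT, and 0 against 1 for A against Q. With no filter edgeR called 1 for RAN against WT, base 3548, and 1 for A against Q. With each library left out edgeR called 0 to 3 for RAN against WT, with 0 without RANQ123 in HEK293 and 1 each without WTQ140 or RANA123 in HEK293, and 1 each time for A against Q. Base 3558 was not tested without WTQ140 in HEK293. The log2 fold changes of the called windows and bases kept their sign in every alternative that tested them, and the cause of lost calls was not tested.

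The share in the range reversed for RAN minus WT with 1 library left out (-0.0481 to 0.371 points against 0.218), for A minus Q in the first 120 bases (-0.0432 against 0.423), and for HEK293T minus HEK293 among ends away from base 2960 (8.13 against -0.401). The median position kept its direction in all 10 alternatives for each comparison, from -18.5 to -2.33 bases for RAN minus WT, 0.5 to 14 for A minus Q and 5.17 to 19.8 for HEK293T minus HEK293. The labels give no replicate numbers, so pairs were matched by plasmid and line and no replicate number could serve as a block. Depth limits HEK293T most: 3 ends are 6.82% to 33.3% of a library's ends in the range there, against 1.20% to 3.45% in HEK293.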

Other observations

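Counted in steps of 3 from base 3401, ends in the range did not fall equally on the 3 positions. The first position held 265 ends (39.4%), the second 248 (36.9%) and the third 159 (23.7%). The 3 bases with most ends, 3473, 3527 and 3548, all lie on the first position, 54 and 21 bases apart, and hold 104 ends. Without them the positions held 161 (28.3%), 248 (43.7%) and 159 (27.99%), so the order rests on those 3 bases. The sources used here do not relate these positions to a reading frame of the plasmids.

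Most values in the range were small. Of 318 values above 0, counting each base in each library, 174 were a single end, 80 were exactly 2 and 6 were 10 or more. The longest run of bases that each had an end in some library was 3478 to 3504, 27 bases, and the longest run inside the range without any end was 3404 to 3413, 10 bases.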
